A study of Homo sapiens with 6 samples.

Results

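The renin-angiotensin genes described here are 8 named genes of the pathway that losartan blocks, found by their symbols among the 21134 genes listed for the series. They are the precursor gene AGT, the peptidases ACE, ENPEP, LNPEP and MME, the receptor gene AGTR1, its associated protein AGTRAP, and ATP6AP2, a membrane receptor of the pathway. All 8 were listed. RNA sequencing covered 6 libraries of hiPSC-CMs from 1 line, H9, which the study calls hiPSC but which is a human embryonic stem cell line. Each of 3 groups had 2 libraries: untreated cells (control), cells exposed to 100 mM alcohol over 24 h (alcohol), and cells exposed for those 24 h to both 100 mM alcohol and 1 μM losartan (co-treated). There was no group with losartan alone. The study's methods and the labels describe a co-treatment, whereas its results call losartan a pretreatment. Nothing says that the 2 libraries of a group came from separate cultures, so p-values measure only the spread between these libraries, which may be technical.

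In the renin-angiotensin system, angiotensinogen, the product of AGT, is cut to angiotensin I, and ACE trims that peptide to angiotensin II (AngII). AngII acts on cardiomyocytes, fibroblasts and vessels mainly through the type 1 receptor (AT1R), encoded by AGTR1, and losartan blocks this receptor. ENPEP, LNPEP and MME are peptidases that process or bind angiotensin peptides further.

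RNA of cardiomyocyte markers was present in every library. All 10 cardiomyocyte markers were above the floor of 3 counts in every library, and MYL7, the atrial myosin light chain, was at 9321 to 16180 FPKM. Of other lists, 10 of 10 smooth muscle and pericyte, 9 of 10 fibroblast and 6 of 6 epithelium markers also passed it. Passing the floor therefore does not tell cell types apart. Libraries held 4898287 to 5051448 expected counts, so 3 counts were worth 0.594 to 0.612 CPM (counts scaled to the library total). FPKM scales a count by transcript length and library size, and levels of different genes are compared only on that scale. Intervals from counts cover counting error only.

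The transcript of losartan's own target was almost undetected. AGTR1 had 0 and 0 counts in the control libraries, 1 and 0 in the alcohol libraries, and 0 and 2 in the co-treated libraries, or 0, 0, 0.09, 0, 0 and 0.18 FPKM. No library held more than 2 of these counts, and the floor of 3 counts is the limit that a library with none allows. The 3 counts stand among 29964600 in the 6 libraries, which is 0.10 CPM with an exact two-sided Poisson 95% interval of 0.0206 to 0.293. Only 5.74% of the listed genes had a lower mean FPKM. Summed over its libraries, each group gave a two-sided interval (for 0 counts this reaches 3.69 counts, above the floor) that overlapped the others, at 0 to 0.366 CPM in control, 0.00254 to 0.560 in alcohol and 0.0244 to 0.728 in co-treated cells. AGTR1 did not pass the filter on low counts and was not tested. A difference between groups was not detectable at this depth, and the RNA counts do not measure the receptor protein. The study reported that AT1R rose with alcohol, in RNA by RT-PCR and in protein by Western blot.

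Other angiotensin receptors were not seen either. AGTR2, the type 2 receptor, and MAS1, a receptor for a shorter angiotensin peptide, were not listed and so stood at 0.

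The 8 genes spread over a wide range of levels. Mean FPKM over the 6 libraries was 78.1 for ATP6AP2, 22.7 for AGT, 16.6 for LNPEP, 11.98 for AGTRAP, 2.90 for ENPEP, 0.463 for ACE, 0.152 for MME and 0.045 for AGTR1. ATP6AP2 was above every other member in every library, and 96.4% of listed genes had a lower mean. In the order of levels, the ranges over all libraries overlapped for AGT and LNPEP, for ACE and MME and for MME and AGTR1. Within a library these neighbours nevertheless stood in the same order in 6 of 6, with AGT and LNPEP as close as 17.04 and 16.75 FPKM and the last 3 genes resting on few counts. AGT, LNPEP and AGTRAP were higher than 85.1%, 79.6% and 72.8% of listed genes. The coefficient of variation over all libraries was 4.59% for LNPEP, 9.54% for ATP6AP2, 15.3% for AGT, 18.2% for AGTRAP, 18.8% for ENPEP and 37.8% for ACE, whose counts were 6 to 15 a library.

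**Figure D1:**
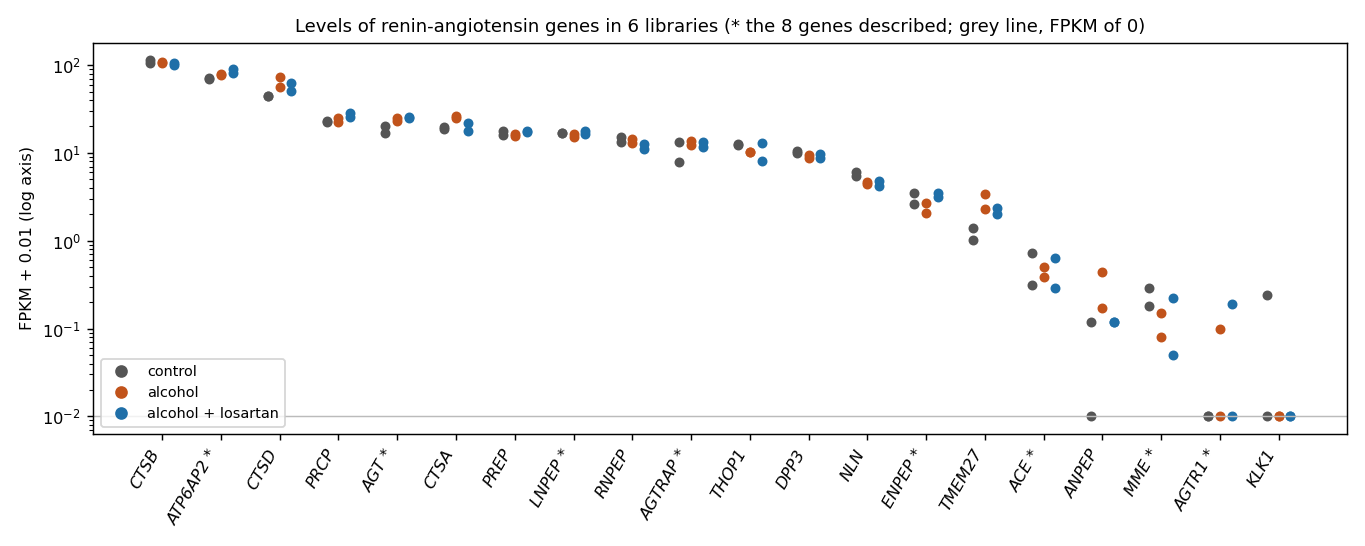
Level of each of the 8 genes (asterisk) and of 12 other renin-angiotensin genes, as FPKM + 0.01 on a log axis, with 1 point per library coloured by group. AGTR1 sits on or near the line that marks an FPKM of 0, while ATP6AP2 lies between 69.78 and 89.83 FPKM. TMEM27 is the older symbol of CLTRN.

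The members differed in the letters of their promoters. RefSeq promoter sequence (GRCh38.p14, 250 bases before the start) was matched for 7 of the 8 genes, all but AGTR1, and was searched on both strands for the TATA box motif TATAAA, the CAAT box motif CCAAT and the GC box motif GGGCGG, none of which contains another. TATAAA occurred in 2 members, AGT and ENPEP, and in 10.7% of 35114 promoters. The stretches with that match are shown because they mark the peptide precursor and the aminopeptidase apart from the other genes matched, with the match in capitals (in ENPEP on the opposite strand). They lie at chr1:230714135-230714164 on the minus strand, with the match 30 bases before the start, and at chr4:110476114-110476143 on the plus strand, 29 bases before the start. The ENPEP window held another match 80 bases before the start, outside the stretch shown.
AGT: ccacccctcagcTATAAAtagggcatcgtg
ENPEP: ggagatgcgtcgTTTATAaggggagctgtg
ATP6AP2, LNPEP and AGTRAP held GGGCGG without TATAAA, with 23, 24 and 25 CpG dinucleotides against 9 in AGT, 10 in ENPEP and a median of 11 over all promoters. GGGCGG occurred in 42.6% of promoters and CCAAT in 32.0%. The first 155 bases of the ATP6AP2 window, which overlap no annotated exon (chrX:40580720-40580874, plus strand), are shown as the promoter of the highest member, with GGGCGG and CCAAT on either strand in capitals.
ATP6AP2: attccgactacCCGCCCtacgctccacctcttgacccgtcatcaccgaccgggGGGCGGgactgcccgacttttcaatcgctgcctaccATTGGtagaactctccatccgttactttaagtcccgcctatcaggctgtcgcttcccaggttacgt
MME held GGGCGG and ACE held CCAAT. The window of 1 RefSeq start was used for each gene matched, and other starts of these genes were not searched. By the GENCODE spans 5 of the 7 windows (ACE, ATP6AP2, ENPEP, LNPEP and MME) lie wholly inside the annotated gene, downstream of its first annotated base. The AGT and AGTRAP windows cross that base, and the AGT stretch shown lies inside the gene span. Which start these cells use is therefore not shown. A match of letters is a description and not a site of binding.

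The study asked whether AngII and its receptor take part in the response to alcohol, and the comparison of alcohol with control addresses that for the RNA of the pathway. By RT-PCR at the same dose and time, the study itself reported significantly higher AngII and AT1R expression. It also reported more AngII in the culture supernatant. The sequencing counts given here are a separate measure from those assays. AGT, the source of all angiotensin peptides (chr1:230702523-230714297, minus strand), stood at 17.04 and 20.00 FPKM in control, 23.00 and 25.19 in alcohol, and 25.45 and 25.26 in co-treated libraries. Every alcohol-exposed library was above both control libraries, and the groups did not overlap. The counts behind these values were 223 and 261, 301 and 320, and 323 and 329. In exon 2 of 5, AGT encodes the peptide at chr1:230710722-230710751 on the minus strand of GRCh38. It is shown because these codons give the peptide that AT1R binds. The capitals are the 8 codons of AngII, and the last 2 codons encode the residues that ACE removes from angiotensin I.
AGT: GACCGGGTGTACATACACCCCTTCcacctc
The fitted log2 fold change of AGT, alcohol against control, was 0.34 (SE 0.13, 95% interval 0.05 to 0.63), with an edgeR p of 0.0249 and an adjusted p of 0.370. The mean AGT level was 18.5 ± 2.09 FPKM (SD, n = 2) for the untreated cells, and alcohol cells had 24.1 ± 1.55 (SD, n = 2). The unadjusted interval lay above 0, but AGT did not pass the test over 14926 genes, where 11.0% of genes reached an unadjusted p under 0.05 and 0.0670% passed after adjustment.

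AGT was no lower in the libraries with losartan. Co-treated cells held 25.4 ± 0.134 FPKM (SD, n = 2), and the log2 fold change against alcohol was 0.07 (95% interval −0.22 to 0.35, adjusted p = 0.971 by edgeR). Against control the co-treated log2 fold change was 0.41 (SE 0.13, interval 0.12 to 0.70), with an edgeR p of 0.00935 and an adjusted p of 0.221. These 2 comparisons share their libraries with the first and are not independent of it. With the 4 alcohol-exposed libraries set against control, a contrast chosen after the values were seen, AGT was higher by 0.37 (SE 0.12), with an edgeR p of 0.00719 and an adjusted p of 0.170. In that contrast 0.556% of genes were called and 13.5% had an unadjusted p under 0.05.

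Summed markers of endoderm and liver and of fibroblasts were higher in all alcohol-exposed libraries than in control, as AGT was. Summed markers of cardiomyocytes and of smooth muscle and pericytes were lower in them. AGT is known for its high level in liver. The summed FPKM of the 10 endoderm and liver markers, 7 of them above the floor in every library, was 45.0 to 46.8 in control, 57.8 to 61.9 in alcohol and 56.7 to 61.1 in co-treated libraries. FOXA2, which defines endoderm, was at or under the floor in every library. None of the 7 tested was called in alcohol against control, where 4 had a higher and 3 a lower fitted value (median log2 fold change 0.11) and 1, APOA1, had an unadjusted p under 0.05. AFP, the fetal serum protein, was at 20.35 and 20.80 FPKM in control, 23.14 and 22.45 in alcohol, and 22.18 and 28.39 in co-treated libraries. The liver apolipoprotein gene APOA1 was at 15.27 and 13.05 FPKM in control, 22.32 and 22.23 in alcohol, and 20.02 and 16.39 in co-treated libraries. AFP and APOA1, at means of 22.9 and 18.2 FPKM, made up most of the endoderm and liver sum. The sum of 10 fibroblast markers was 452 to 499 in control, 570 to 579 in alcohol and 536 to 587 in co-treated libraries. Of the 9 tested, 7 had a higher and 2 a lower fitted value in alcohol than in control (median log2 fold change 0.19). In that comparison 3 had an unadjusted edgeR p under 0.05, 2 of them higher. These 2, COL14A1 and MFAP4, were called higher in alcohol and in co-treated cells than in control. Cardiomyocyte markers summed to 23896 to 24026, 17013 to 22568 and 19199 to 21684 in the same order, and smooth muscle and pericyte markers to 1810 to 2034, 830 to 1551 and 1081 to 1144. The cardiomyocyte sum was mostly MYL7, at a mean of 12452 FPKM. Of these 10 markers 5 had a higher and 5 a lower fitted value in alcohol than in control (median −0.015) and 0 were called, and PLN, phospholamban, was at 1529 and 1322 FPKM in control and 1810 and 1698 in alcohol. Of the 10 smooth muscle and pericyte markers 3 had a higher and 7 a lower fitted value in alcohol than in control (median −0.22). None was called in that comparison. With the 4 alcohol-exposed libraries against control, 6 had an unadjusted edgeR p under 0.05, 2 of them higher. TAGLN and ACTA2 were the highest of this list, at means of 636 and 350 FPKM. The part of any of these cell types in the AGT values was not tested. In bulk RNA a change in the number of cells of a type and a change in RNA per cell cannot be told apart.

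**Figure D2:**
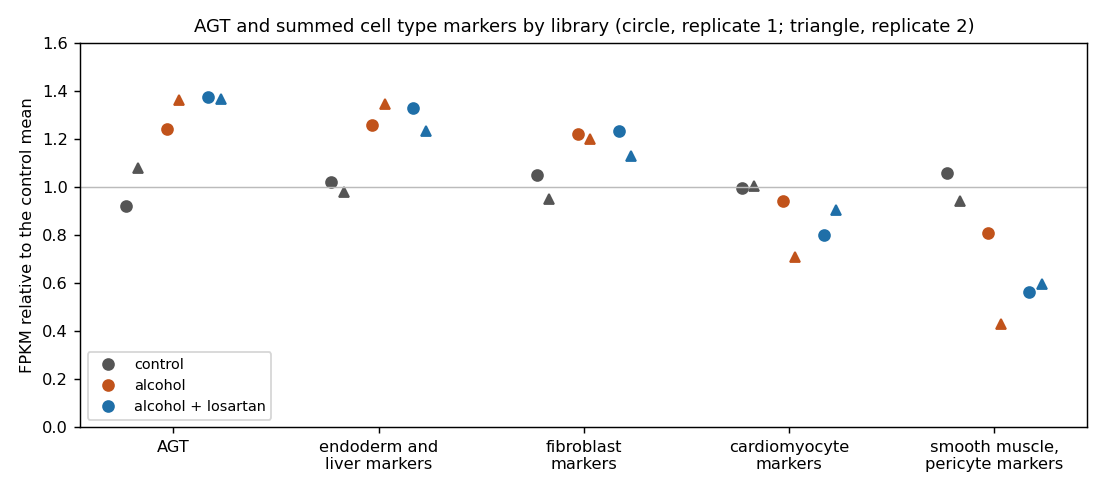
AGT and the summed FPKM of 4 marker lists in each library, divided by the mean of the 2 control libraries, with circles for replicate 1 and triangles for replicate 2. AGT and the endoderm and liver sum were at 1.23 or more in all 4 alcohol-exposed libraries, while the smooth muscle and pericyte sum was under 0.81 in them.

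Genes whose pattern over the 6 libraries was most like that of AGT, by root mean square difference of centred log2 CPM, were FGF13, HDAC11 and GAB2. FGF13, which encodes a modulator of sodium channels, differed from AGT by 0.0340 and was at 42.23 and 51.25 FPKM in control, 55.64 and 59.14 in alcohol and 64.96 and 67.65 in co-treated libraries. HDAC11, a histone deacetylase, differed by 0.0365, and GAB2, an adaptor of receptor signaling, by 0.0375. The median difference over all genes tested was 0.269. AGTR1 has no such neighbours because it has 3 counts.

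Of the peptidases, ACE was low and variable. ACE, which makes AngII (chr17:63477061-63498380, plus strand), had 6 and 13 counts in control, 9 and 12 in alcohol, and 15 and 7 in co-treated libraries, which are 0.30 and 0.71, 0.38 and 0.49, and 0.62 and 0.28 FPKM. By FPKM the highest library was control 2 and the lowest co-treated 2, by counts co-treated 1 and control 1, and the groups overlapped on both scales. Its log2 fold change was 0.12 for alcohol against control (interval −1.19 to 1.44) and 0.06 for co-treated against alcohol (interval −1.22 to 1.35), with adjusted p of 0.965 and 0.994 by edgeR. The mean FPKM ran the other way in the first comparison, 0.505 in control and 0.435 in alcohol (log2 ratio −0.22), so no direction is given for ACE. Its interval reaches from 0.439 to 2.70 times the control level, so an unchanged ACE is not shown.

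ENPEP, aminopeptidase A, which shortens AngII (chr4:110365733-110565285, plus strand), was at 3.45 and 2.60 FPKM in control, 2.08 and 2.67 in alcohol, and 3.12 and 3.47 in co-treated libraries. Control and alcohol overlapped on this scale, and both co-treated libraries were above both alcohol libraries. The log2 difference was −0.39 for alcohol against control (interval −0.91 to 0.12, adjusted p = 0.596 by edgeR). It was 0.47 for co-treated against alcohol (interval −0.04 to 0.98), with an edgeR p of 0.0683 and an adjusted p of 0.900, the widest difference among the members in that comparison. ENPEP did not pass the test in either. Without control replicate 1 the first value was −0.14, and without alcohol replicate 1 it was −0.25.

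LNPEP, the insulin-regulated aminopeptidase that binds angiotensin IV (chr5:96935394-97037515, plus strand), was at 16.75 FPKM in both control libraries, 15.25 and 16.53 in alcohol, and 16.50 and 17.61 in co-treated libraries. The alcohol libraries were below both controls, and the co-treated ones lay on either side of them. Its log2 difference was −0.12 for alcohol against control (interval −0.38 to 0.14) and 0.09 for co-treated against alcohol (interval −0.17 to 0.35), with adjusted p of 0.791 and 0.962 by edgeR. MME, neprilysin, which degrades angiotensin and natriuretic peptides (chr3:155024124-155183729, plus strand), had 5 and 8 counts in control, 4 and 2 in alcohol, and 1 and 6 in co-treated libraries. Alcohol libraries were below both controls and co-treated cells overlapped every group, but with 26 counts in all MME did not pass the filter and was not tested.

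RNA of AGTRAP and of ATP6AP2 was present in every library. AGTRAP, which binds AT1R and promotes its internalization (chr1:11736084-11754802, plus strand), was at 7.80 and 13.17 FPKM in control, 12.17 and 13.63 in alcohol, and 13.45 and 11.68 in co-treated libraries. The first control library was the low one, and the groups overlapped. Without it the log2 difference of alcohol from control was −0.0937. The AGTRAP log2 difference was 0.21 for alcohol against control (interval −0.34 to 0.76, adjusted p = 0.822 by edgeR) and −0.06 for co-treated against alcohol (interval −0.60 to 0.48, adjusted p = 0.986). 

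ATP6AP2, which takes part in the pathway and also serves the vacuolar proton pump (chrX:40579372-40606848, plus strand), was at 69.78 and 70.87 FPKM in control, 77.06 and 78.79 in alcohol, and 82.19 and 89.83 in co-treated libraries. The 3 groups did not overlap on this scale and stood in the order control, alcohol, co-treated. Of all genes 24.7% were higher without overlap in alcohol than in control, and 18.0% in co-treated than in alcohol libraries. The share of genes with the whole order was not counted. Group means were 70.3 ± 0.771, 77.9 ± 1.22 and 86.01 ± 5.402 FPKM (SD, n = 2 each). After normalization between libraries the log2 differences were 0.11 for alcohol against control (interval −0.14 to 0.36, adjusted p = 0.794 by edgeR), 0.14 for co-treated against alcohol (interval −0.11 to 0.38, adjusted p = 0.937) and 0.24 for co-treated against control (edgeR p of 0.0522, adjusted p = 0.402). None passed the test, and with the second co-treated library left out the co-treated against alcohol value was 0.0528, or 0.21 with the first left out.

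**Figure D3:**
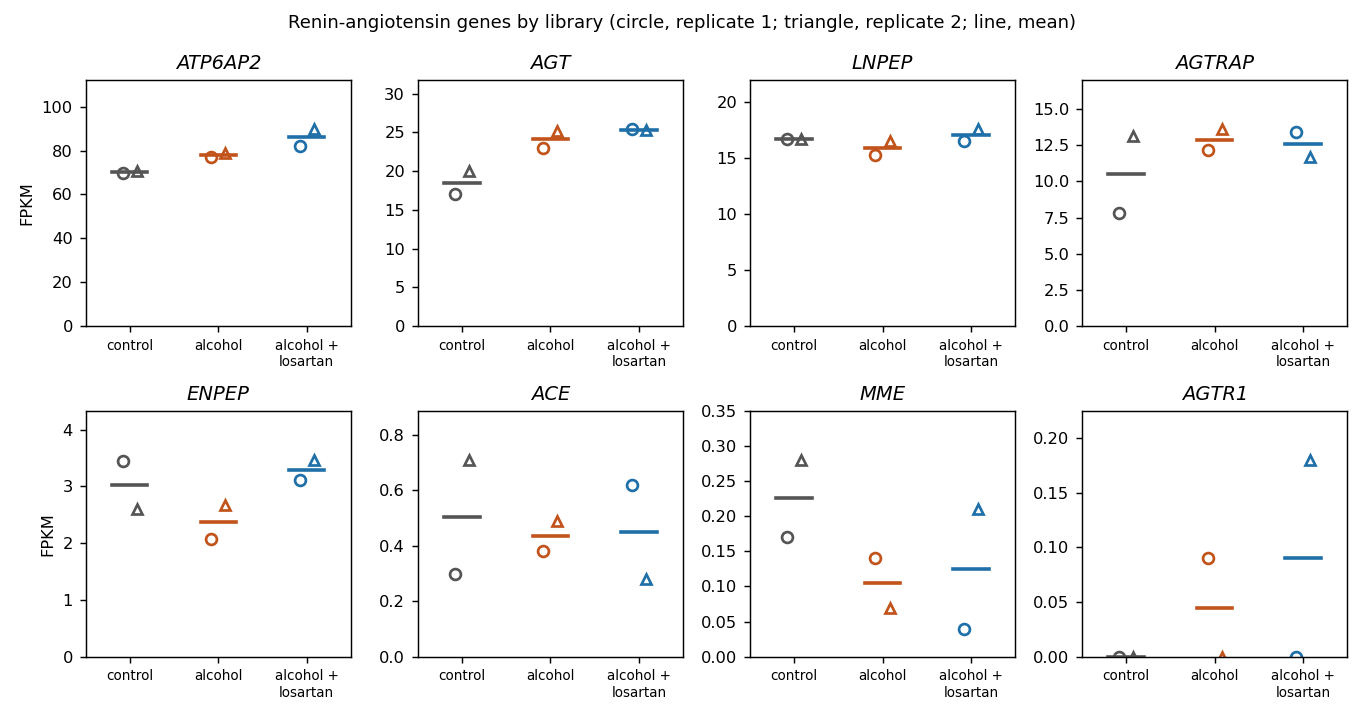
FPKM of the 8 genes in each library, with a circle for replicate 1, a triangle for replicate 2 and a line for the group mean, each panel on its own axis from 0. AGT and ATP6AP2 are higher in all 4 alcohol-exposed libraries than in both controls, while ACE, MME and AGTR1 scatter near 0.

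Across the members the comparisons gave no calls. Of the 8 genes 6 were tested, and 0 had an adjusted p under 0.05 in alcohol against control, where edgeR called 0.0670% of all genes, in co-treated against alcohol (0.0134%) or in co-treated against control (0.362%). At an unadjusted p under 0.05 there was 1 member, AGT, in the first and the last of these, against backgrounds of 11.0% and 12.6% of genes, and 0 members in co-treated against alcohol, against 5.55%. By FPKM, 2 of 6 members (AGT and ATP6AP2) were higher without overlap in alcohol than in control, where 24.7% of genes were, and 1 (LNPEP) was lower, where 17.7% were. In co-treated against alcohol 3 of 6 (AGT, ATP6AP2 and ENPEP) were higher without overlap, where 18.0% of genes were, the AGT groups being apart by only 25.19 to 25.26 FPKM. In co-treated against control 2 of 6 (AGT and ATP6AP2) were higher without overlap, where 27.1% of genes were. With the 4 alcohol-exposed libraries against control these 2 genes were higher without overlap, where 14.8% of genes were, and 0 members were lower, where 8.39% were. After TMM scaling, a normalization between libraries, the same shares of genes higher and lower were 22.0% and 21.8%, 17.3% and 16.2%, 21.6% and 21.7%, and 11.8% and 11.3% in the 4 comparisons. On that scale ENPEP was also lower without overlap in alcohol than in control, and LNPEP higher in co-treated than in alcohol cells. The median log2 fold change of the 6 genes was 0.12, 0.08 and 0.17 in the 3 comparisons, beside −0.0033, 0.0023 and −0.0017 over all genes tested.

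**Figure D4:**
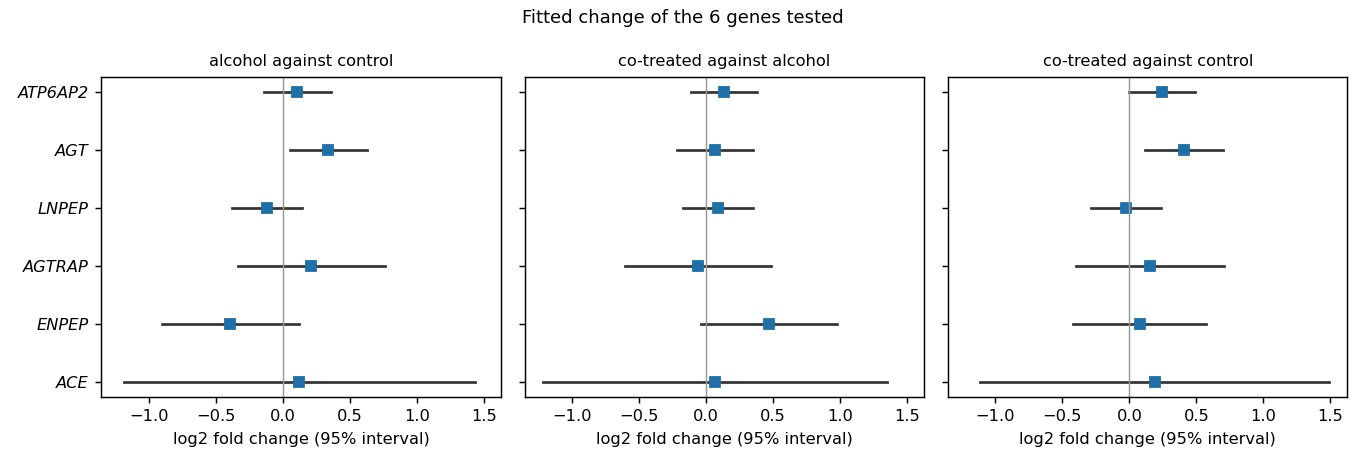
Fitted log2 fold change (square) with its 95% interval (line) for the 6 genes tested, in each of 3 comparisons, with genes ordered by mean level. The intervals of AGT lie above 0 in both comparisons with control, and that of ACE spans more than 2 log2 units.

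Of 20 other renin-angiotensin genes, 14 were listed and 11 tested. None was called in any comparison, while 5 (3 higher), 1 (lower) and 2 (both lower) of 11 had an unadjusted p under 0.05 in alcohol against control, co-treated against alcohol and co-treated against control, beside 11.0%, 5.55% and 12.6% of all genes. Their median log2 fold changes were −0.11, −0.05 and −0.12.

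Lysosomal proteases led this group in level. CTSB and CTSD, lysosomal cathepsins, had the highest levels, at a mean of 106 and 55.0 FPKM. CTSD was at 44.07 and 44.95 FPKM in control, 55.64 and 72.49 in alcohol, and 62.07 and 50.89 in co-treated libraries. It was lowest in both controls, with a log2 difference of 0.48 for alcohol against control (adjusted p = 0.193 by edgeR). CTSA, a carboxypeptidase that can act on angiotensin I, was at 19.48 and 18.91 FPKM in control, 25.12 and 26.41 in alcohol, and 21.95 and 17.73 in co-treated libraries. The alcohol libraries of CTSA were above all the others, with a log2 difference from control of 0.38 (adjusted p = 0.298 by edgeR).

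Beyond the receptor, 26 genes of AT1R coupling (G proteins, phospholipase C, protein kinase C, arrestins and regulators) were all tested and 0 were called in the 3 comparisons, with 2, 0 and 5 at an unadjusted p under 0.05, beside the same 11.0%, 5.55% and 12.6% of all genes. GABARAP, which aids receptor traffic, was the highest at a mean of 200 FPKM, followed by RGS5, which damps G protein signals, at 69.4 FPKM. RGS5 and PLCB2, a phospholipase C, had the smallest p in alcohol against control, with log2 differences of −0.35 and 0.52 and adjusted p of 0.422 and 0.254 by edgeR.

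Among 23 genes known to respond to AngII, 22 were tested. In co-treated against control 1 was called, ACTA2, and it was lower, beside 0.362% of all genes called, while 0 were called in either of the other comparisons. At an unadjusted p under 0.05 there were 6 of 22 in alcohol against control, all lower, 0 in co-treated against alcohol and 6 in co-treated against control, 1 of them higher, beside 11.0%, 5.55% and 12.6% of all genes. ACTA2, smooth muscle actin, was at 507 and 580 FPKM in control, 337 and 203 in alcohol, and 248 and 224 in co-treated libraries. Both controls were above the other 4 libraries, with log2 differences from control of −1.04 in alcohol (adjusted p = 0.0797 by edgeR) and −1.25 in co-treated cells (adjusted p = 0.0203). The call in co-treated cells was lost when either co-treated library was left out, at adjusted p of 0.157 and 0.349. ACTA2 is also one of the smooth muscle and pericyte markers whose sum was lower in these libraries, and the part of those cells in its values was not tested. NPPA, the atrial natriuretic peptide, was at 3622 and 4799 FPKM in control, 2965 and 2363 in alcohol, and 2375 and 2966 in co-treated libraries. Both controls were the highest, with a log2 difference of −0.69 for alcohol against control (adjusted p = 0.168 by edgeR). MYH7, the slow myosin heavy chain, was second in level at a mean of 2779 FPKM.

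Enzyme and complex partners of the members gave no calls in the 3 comparisons. Of the vacuolar proton pump, with which ATP6AP2 associates, 16 of 16 subunit genes were tested and 2 had an unadjusted p under 0.05 in each comparison, beside 11.0%, 5.55% and 12.6% of all genes. ATP6V0E1 and ATP6V1E1 were the highest, at a mean of 68.0 and 67.3 FPKM. ATP6V0E2 was at 9.97 and 10.96 FPKM in control, 15.31 and 18.43 in alcohol, and 17.42 and 13.44 in co-treated libraries, all 4 above both controls, with a log2 difference of 0.65 for alcohol against control (adjusted p = 0.167 by edgeR). ATP6V0D1 had 0.38 in the same comparison (adjusted p = 0.244). Of 11 M1 aminopeptidases, the family of ENPEP and LNPEP, 9 were tested, with LTA4H, leukotriene A4 hydrolase, the highest at 46.0 FPKM and 0.39 on the log2 scale for alcohol against control (adjusted p = 0.275). NPEPPS, the puromycin-sensitive aminopeptidase, followed at 38.2 FPKM. Of 9 peptidases of the families of MME and ACE, 5 were tested, with ECE1, the endothelin-converting enzyme, the highest at 29.01 FPKM and −0.26 in that comparison (adjusted p = 0.413 by edgeR). KEL, the Kell blood group protein, followed at 24.6 FPKM.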

How the data were processed

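RNA was sequenced from 6 libraries, 2 per group, with groups taken from each sample's treatment label. For each gene the authors deposited an expected count, of which 33.9% were not whole, and an FPKM, scaled by length and library. The submitters' processing notes name HISAT2 2.0.4, Bowtie2 2.2.5, RSEM 1.2.12 and hg38, without their roles. Genes not listed in a library were set to 0. Expected counts were rounded and tested with edgeR 4.0.16 (R 4.3.3): TMM normalization, filterByExpr, all 6 libraries in 1 fit, two-sided quasi-likelihood F tests and Benjamini-Hochberg adjustment at 0.05 over 14926 genes. The code was tested on simulated counts. DESeq2 1.42.0 and limma 3.58.1 on log2(FPKM + 1) and log2(FPKM + 0.1) were alternatives. Poisson intervals are exact at 95%. Centred log2 CPM had a prior count of 2.

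The members and lists were chosen with earlier results of these data known. Text names all members, AGTR2 and MAS1, and from each list the called genes, the 2 highest and the 2 with the smallest p in alcohol against control, apart from genes that are not reported here. Of the marker lists the genes named were chosen after their values were seen. Gene positions are from GENCODE v29 (GRCh38), promoters from RefSeq. Reads shared between overlapping or antisense genes could not be told apart without strand.

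Marker lists of epithelium, endothelium and pluripotent cells were also summed. Epithelium markers summed to 1082 to 1239 FPKM in control, 687 to 1038 in alcohol and 765 to 845 in co-treated libraries. Of these 6 markers 5 had a lower fitted value in alcohol than in control, and 0 were called. In the same order endothelium markers summed to 22.4 to 23.4, 23.5 to 23.7 and 20.3 to 27.6. Pluripotent markers summed to 12.2 to 12.7, 12.7 to 16.0 and 10.9 to 19.7.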

Additional observations from a re-analysis of the deposited data

How the results depend on the processing

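No member was called in any edgeR, DESeq2 or limma fit, and 321 of 350 alternative member values kept their direction, with a lowest adjusted p of 0.134 by edgeR. In alcohol against control DESeq2 gave an adjusted p for only 3 members. It gave none for ACE, ENPEP and AGTRAP, so these could not be called in that fit. AGT kept its direction in 15 of 15 settings, at 0.26 to 0.46 in alcohol against control (p under 0.05 in 12) and 0.31 to 0.51 in co-treated against control (in 14). By a log2 ratio of mean FPKM beyond 1, MME was the 1 member past the fold in alcohol against control, of 7 with a ratio. That ratio rests on 13 counts in control and 6 in alcohol, with a library at or under the floor. AGTR1 had no ratio because its control mean was 0. With limma on log2(FPKM + 1), on log2(FPKM + 0.1), and on log2(FPKM + 1) without a filter, ACE was at −0.0563, −0.10 and −0.0563 in alcohol against control, at −0.0502, −0.12 and −0.0502 in co-treated against control, and at −0.0532, −0.11 and −0.0532 in alcohol-exposed against control, and LNPEP at 0.0239, 0.0251 and 0.0239 in co-treated against control. ACE was at −0.0249 in co-treated against alcohol with log2(FPKM + 0.1).

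With each library left out in turn, these values changed sign between settings. ACE ranged from −0.30 to 0.78 in alcohol against control, from −0.58 to 0.51 in co-treated against alcohol, from −0.46 to 0.83 in co-treated against control, from −0.27 to 0.80 in alcohol-exposed against control. AGTRAP ranged from −0.0937 to 0.64 in alcohol against control, from −0.17 to 0.0454 in co-treated against alcohol, from −0.17 to 0.57 in co-treated against control, from −0.13 to 0.61 in alcohol-exposed against control. ENPEP ranged from −0.13 to 0.31 in co-treated against control, from −0.36 to 0.0830 in alcohol-exposed against control. LNPEP ranged from −0.0835 to 0.0316 in co-treated against control.

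For each gene, the difference of replicate 1 from replicate 2 in log2 CPM was correlated between groups. The correlation was 0.114 for control and alcohol, 0.0412 for alcohol and co-treated, and −0.0162 for control and co-treated. The replicate numbers were therefore not taken to pair samples. With the replicate block no member was called (0 in each comparison), and AGT was at 0.34 in alcohol against control (adjusted p = 0.311 by edgeR). Calls over all genes ranged from 0 to 220 in alcohol against control, 0 to 24 in co-treated against alcohol and 2 to 184 in co-treated against control, the highest each time without alcohol replicate 1. Without alcohol replicate 1, and under 3 other settings, ACTA2 was called lower in alcohol than in control, and NPPA was called lower without alcohol replicate 1 (adjusted p = 0.0332 by edgeR). The ACTA2 call in co-treated cells was lost without a filter and with limma on FPKM. Counts of 3 or fewer a library limit what can be said of AGTR1, and 6 to 15 limit ACE.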
